A study of Homo sapiens with 4 samples.

Results

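CAMK2N1 (ENSG00000162545) is 1 gene of the 33538 counted in this single-cell RNA sequencing (scRNA-seq) series, and its row was found by its symbol. It was chosen for its level after short enzalutamide (ENZ), so its levels in the libraries are given as a description and support nothing by themselves. The cells were LNCaP, an androgen-sensitive line from a prostate cancer metastasis, and derivatives of it, and each group was a single library. Parental cells (LNCaP) had been given 0.1% DMSO for 48 h and LNCaP-ENZ48 cells 10 µM ENZ for the same time. The ENZ-resistant lines, RES-A and RES-B, were maintained with 10 µM ENZ. RES-A had been selected by passaging in rising concentrations of ENZ and RES-B by long treatment with the related antagonist RD-162, so each resistant line is a single derivation. No group had a replicate, so no difference below has a replicate check and no test was run.

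CAMK2N1 encodes a small protein that binds and inhibits calcium/calmodulin-dependent protein kinase II (CaMKII), a kinase made of subunits encoded by CAMK2A, CAMK2B, CAMK2D and CAMK2G. Calcium bound to calmodulin switches the kinase on, and the inhibitor acts on the active form. In prostate cancer cells CAMK2N1 has been described as a growth-restraining gene. ENZ blocks androgen signalling, which drives KLK2, KLK3 and other luminal genes in this tissue.

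In GRCh38 the gene spans chromosome 1 from 20482391 to 20486210 on the minus strand, 3820 bases (GENCODE 44). Its main transcript has 2 exons, from 20485214 to 20486210 and from 20482391 to 20483719. The coding part takes 20485214 to 20485379 of the first exon and 20483652 to 20483719 of the second, so most of the second exon is 3′ UTR, the end from which 3′ libraries read. A second transcript starts inside the intron at 20484645. No other annotated gene overlaps it on either strand.

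Counts were unique molecular identifiers (UMIs), each standing for a captured RNA molecule. After filtering, the libraries held 1782 to 4569 cells and 50208831 to 60838227 UMIs. LNCaP had fewer and deeper cells (median 27079.5 UMIs) than the other libraries (12138 to 13676), so shares of cells were taken after every cell had been thinned at random to 5000 UMIs. Between 2 and 9 cell barcodes were shared by a pair of libraries. Of the luminal markers, KRT8, KRT18, EPCAM and HOXB13 were each at 92.0 CPM (UMIs scaled to the same library total) or more in every library. Of 10 markers of immune, fibroblast, endothelial, basal and neuroendocrine cells, 5 (PTPRC, CD3E, KRT5, TP63 and CHGA) had no UMI in any library, and the 10 together came to 5.72 to 8.58 CPM.

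CAMK2N1 had 3136 UMIs in LNCaP and 13430 in LNCaP-ENZ48, and RES-A had 2661 against 35787 for RES-B. As CPM of the summed UMIs this was 62.5 (exact Poisson 95% interval 60.3 to 64.7) in LNCaP and 221 (217 to 224.5) in LNCaP-ENZ48. It was 46.4 (44.7 to 48.2) in RES-A and 681 (674 to 688) in RES-B. The order was therefore RES-A, LNCaP, LNCaP-ENZ48 and RES-B, and no neighbouring intervals overlapped. These intervals, and all others below, cover counting error only, and the spread between libraries of a group is not known. In summed counts a change in the number of expressing cells and a change in RNA per cell cannot be told apart, which the values per cell below take up.

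**Figure D1:**
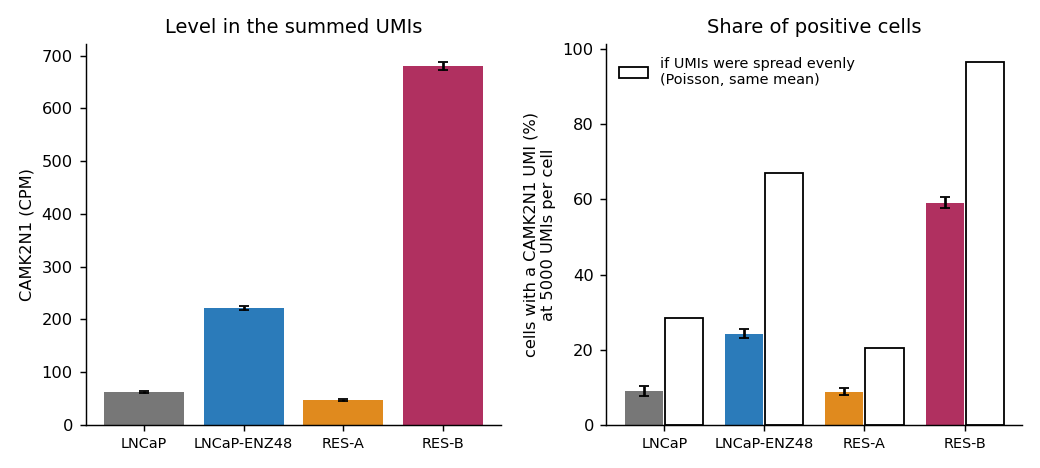
CAMK2N1 in the 4 libraries. Left, level in CPM of the summed UMIs with exact Poisson 95% intervals. Right, share of cells with at least 1 CAMK2N1 UMI after thinning to 5000 UMIs per cell (filled bars, exact binomial 95% intervals) beside the share that an even spread of the same mean would give (open bars). RES-B is highest in both panels, at 681 CPM and 59.2% of cells, and every filled bar is lower than its open bar.

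To describe the response to short treatment, LNCaP-ENZ48 was compared with LNCaP. CAMK2N1 was 3.53-fold higher after 48 h of ENZ, a log2 ratio of 1.82 (exact conditional binomial 95% interval 1.77 to 1.88). This was the highest ratio among the 7282 genes whose 2 libraries averaged 10 CPM or more, of which 14 (0.192%) were at least 2-fold higher and 47 (0.645%) at least 2-fold lower. The median gene had a log2 ratio of -0.07. Among cells called G1 the ratio of CAMK2N1 was the second highest. Since the gene was picked from this contrast, its place in the order is what the choice fixed.

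The resistant lines differed from each other. In RES-A, where 278 of 7428 genes (3.74%) were at least 2-fold higher than in LNCaP and 308 (4.15%) at least 2-fold lower, CAMK2N1 had a log2 ratio of -0.43 (-0.50 to -0.35), within 2-fold. In RES-B it was 10.9-fold higher than in LNCaP, a log2 ratio of 3.45 (3.39 to 3.50) that 29 of 7570 genes exceeded. There 4.82% of genes were at least 2-fold higher and 3.08% at least 2-fold lower. Against RES-A, RES-B was 14.7-fold higher (log2 ratio 3.87, 3.82 to 3.93), with 16 of 7508 genes above it, 3.37% of genes at least 2-fold higher and 1.7% at least 2-fold lower. Both lines were kept in the same concentration of ENZ as the 48 h cells. Relative to LNCaP-ENZ48, RES-A was lower by a log2 ratio of -2.25 (-2.31 to -2.19) and RES-B higher by 1.62 (1.60 to 1.65). The comparisons with LNCaP share that library, so they are not independent of each other.

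The UMIs of CAMK2N1 sat in a minority of cells in LNCaP, LNCaP-ENZ48 and RES-A. At 5000 UMIs per cell, 8.98% of LNCaP cells (exact binomial 95% interval 7.69 to 10.4) had at least 1 UMI of the gene. The share was 24.3% (23.0 to 25.6) in LNCaP-ENZ48. RES-A had 8.82% (8.01 to 9.68) and RES-B 59.2% (57.6 to 60.7). The intervals of LNCaP and RES-A overlapped, and the other neighbours in the order did not. Before thinning the shares were 17.5%, 32.2%, 13.3% and 75.4%. No cell class in these cultures is known to lack the gene, so a background from free RNA was not measured. With positive defined as at least 2 UMIs, the shares were 5.56%, 16.5%, 4.53% and 41.5%, in the same order as the levels.

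The ratio to LNCaP was split into the number of positive cells and the UMIs per positive cell. Positive cells held a mean of 2.59 thinned UMIs in RES-A, 3.74 in LNCaP, 4.58 in LNCaP-ENZ48 and 5.69 in RES-B. In LNCaP-ENZ48 the thinned mean was 3.31-fold that of LNCaP, made of 2.70-fold more positive cells and 1.22-fold more UMIs in each. In RES-B it was 10.0-fold, made of 6.59-fold more positive cells and 1.52-fold more UMIs in each. RES-A had 0.982 times the positive share of LNCaP and 0.693 times the UMIs per positive cell. At such low means, more RNA per cell also raises the share of cells with a UMI, so the split does not separate the number of expressing cells from the RNA in each. The share of RES-A was further below that of LNCaP at 2 or more UMIs (4.53% and 5.56%). It was also further below before thinning (13.3% and 17.5%), where the greater depth of LNCaP cells raises their share by construction.

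Among single cells the spread was far wider than counting alone gives. If the thinned UMIs had been distributed evenly, 20.4% of RES-A, 28.5% of LNCaP, 67.1% of LNCaP-ENZ48 and 96.5% of RES-B cells would have been positive. The variance divided by the mean, which is 1 for pure counting, was 4.34 in RES-A, 6.99 in LNCaP, 7.21 in LNCaP-ENZ48 and 8.27 in RES-B. Among genes found in at least 10% of the thinned cells of a library (4551 to 4998), only 6 to 8 had a higher value, and the median gene was at 1.02 to 1.03. This measure grows with a gene's level. The cells with most UMIs, 1.86% of cells in RES-A, 1.68% in LNCaP, 4.91% in LNCaP-ENZ48 and 10.5% in RES-B, held 50% of the UMIs of the gene. Single cells reached 36 unthinned UMIs in RES-A, 119 in LNCaP, 66 in LNCaP-ENZ48 and 106 in RES-B, while the median cell had 0 in the first 3 of these and 2 in RES-B.

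**Figure D2:**
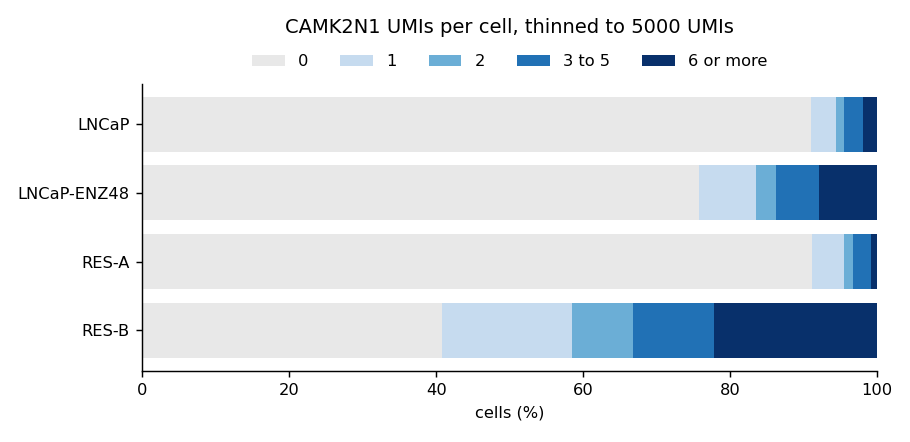
Cells of each library by their number of CAMK2N1 UMIs after thinning to 5000 UMIs, in percent. Cells with 6 or more UMIs made up 0.832% of RES-A, 1.91% of LNCaP, 7.83% of LNCaP-ENZ48 and 22.2% of RES-B, while 91.2%, 91.0%, 75.7% and 40.9% had none.

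CAMK2N1 was lowest in cells called G2/M in all 4 libraries. Cells were called G1, S or G2/M from published lists of S phase and G2/M phase genes, and levels were taken at equal depth. In LNCaP the level was 83.6 CPM (76.8 to 90.8) in G1, 26.9 (14.7 to 45.2) in S and 13.2 (8.28 to 20.005) in G2/M. In LNCaP-ENZ48 it was 247 (240 to 255) in G1, 155 (130 to 183) in S and 59.2 (49.9 to 69.6) in G2/M. The G1 interval lay above the G2/M interval in each of these libraries.

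The resistant lines had the same order of phases by level. By share of positive cells, RES-B had 66.7% (60.7 to 72.2) in S and 61.6% (59.8 to 63.3) in G1, intervals that overlapped. The shares in RES-A were 9.36% in S and 9.86% in G1. G2/M had the lowest share in both lines, 45.6% in RES-B and 4.85% in RES-A. RES-A had 54.7 CPM (51.1 to 58.4) in G1, 37.9 (30.2 to 47.0) in S and 17.4 (13.8 to 21.7) in G2/M. RES-B had 776 (762 to 790) in G1, 689 (646 to 735) in S and 220 (205 to 236) in G2/M. The fold of G1 over G2/M was 6.32 (4.14 to 10.2) in LNCaP and 4.18 (3.54 to 4.97) in LNCaP-ENZ48. RES-A had a fold of 3.14 (2.49 to 4.001) and RES-B of 3.52 (3.28 to 3.79). G1 calls took 70.6% of RES-A, 75.5% of LNCaP, 84.5% of LNCaP-ENZ48 and 75.8% of RES-B cells, so phase make-up moved with the level in LNCaP-ENZ48. Within G1 cells alone, LNCaP-ENZ48 was above LNCaP by a log2 ratio of 1.66 and RES-B by 3.35, and RES-A was below it by -0.46.

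**Figure D3:**
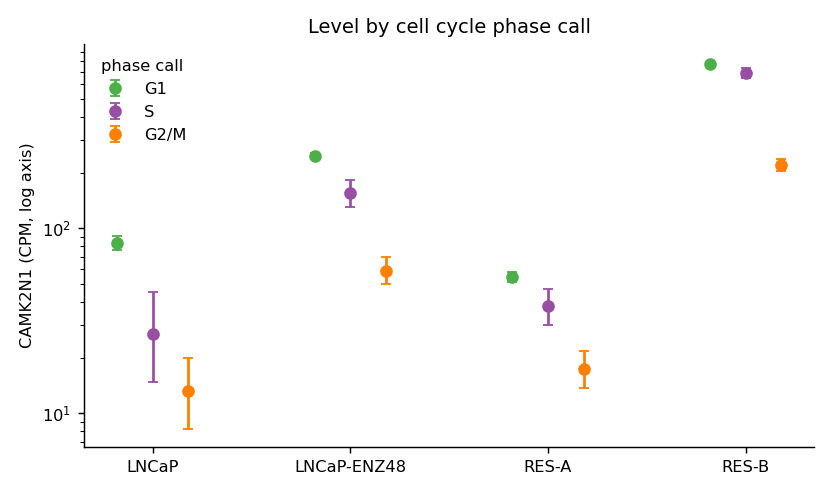
CAMK2N1 level in CPM (log axis) by cell cycle phase call in the 4 libraries, at 5000 UMIs per cell, with exact Poisson 95% intervals. In each library G1 is highest and G2/M lowest, from 83.6 against 13.2 CPM in LNCaP to 776 against 220 in RES-B.

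The cells that carried CAMK2N1 were then described by the genes that varied with it. Pearson's r was taken over the cells of each library separately, on log-normalised thinned counts, with every gene found in at least 10% of cells. These r describe the cells of 1 library, share its depth and cell cycle, and carry no p. In sparse counts a weak r is no finding. An r of 0.1 or more was reached by 6 of 4773 genes in RES-A (0.126%), 12 of 4800 in LNCaP (0.25%), 14 of 4550 in LNCaP-ENZ48 (0.308%) and 43 of 4997 in RES-B (0.861%). An r of -0.1 or less was reached by 0.0419%, 0.146%, 0.264% and 1.12% of genes in the same order. The median r of all genes was between -0.01 and 0.00. RES-B, the library with most CAMK2N1, thus also had most genes past either limit. Its cells held a mean of 3.36 thinned UMIs of the gene, and those of the other libraries 0.228 to 1.11. Sparse counts hold r down, so these counts of genes do not compare the strength of covariation between libraries.

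PLA2G2A stood first in RES-B. It encodes a secreted phospholipase A2, and its gene lies 502 kb from CAMK2N1 on the same chromosome, from 19975431 to 19980416. In RES-B its r was 0.47, and its level was 200 CPM in CAMK2N1-positive and 27.1 in CAMK2N1-negative cells. It was detected in 36.6% of the positive and 10.5% of the negative cells. In the other libraries PLA2G2A was found in 1.18% (LNCaP), 2.29% (LNCaP-ENZ48) and 2.98% (RES-A) of thinned cells, under the 10% filter, so it was examined there with a lower filter of 0.5%, chosen after its value in RES-B was seen.

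With that filter PLA2G2A had the highest r with CAMK2N1 in every library. It was 0.23 among 12427 genes in LNCaP and 0.29 among 12338 in LNCaP-ENZ48. RES-A gave 0.45 among 12641 genes and RES-B 0.47 among 12546. In LNCaP the level of PLA2G2A was 1.23 CPM (0.591 to 2.27) in cells with no CAMK2N1 UMI and 64.7 (32.3 to 115.8) in the 34 cells with 6 or more. In LNCaP-ENZ48 it was 0.673 (0.336 to 1.20) and 72.8 (60.5 to 86.8), the latter in 338 cells. In RES-A it was 2.83 (2.16 to 3.65) and 337 (259 to 430), the latter in 38 cells. In RES-B it was 27.1 (23.7 to 30.9) and 375 (357 to 393), the latter in 900 cells.

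The RES-A cells with most CAMK2N1 thus had a PLA2G2A level whose interval overlapped that of the corresponding RES-B cells, although PLA2G2A over the whole library was 12.6 CPM in RES-A and 129 in RES-B. Over the whole of LNCaP it was 2.93 CPM and of LNCaP-ENZ48 8.04. The values in LNCaP rest on few molecules, 10 UMIs in the negative cells and 11 in the cells with 6 or more. Within G1 cells the pair of values was 1.67 and 62.5 CPM in LNCaP, 0.591 and 74.9 in LNCaP-ENZ48. It was 2.62 and 330 in RES-A and 25.02 and 383 in RES-B, so the difference was of like size without the cells called S or G2/M.

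AIDA, which encodes an inhibitor of JNK activation by axin, came second in RES-B (r = 0.32). Its level there was 489 CPM (474 to 504) in cells without CAMK2N1 and 998 (969 to 1028) in cells with 6 or more UMIs. In RES-A the corresponding values were 321 (314 to 329) and 574 (471 to 692), and in LNCaP-ENZ48 they were 399 (389 to 409) and 567 (532 to 604). In LNCaP they were 144 (136 to 153) and 206 (143 to 286), whose intervals overlapped, and its r was 0.05. Over whole libraries AIDA was at 151 CPM in LNCaP, 332 in RES-A, 421 in LNCaP-ENZ48 and 656 in RES-B. MIA3, the gene beside AIDA, was also among the 50 highest r in 3 libraries (r = 0.06 to 0.14).

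**Figure D4:**
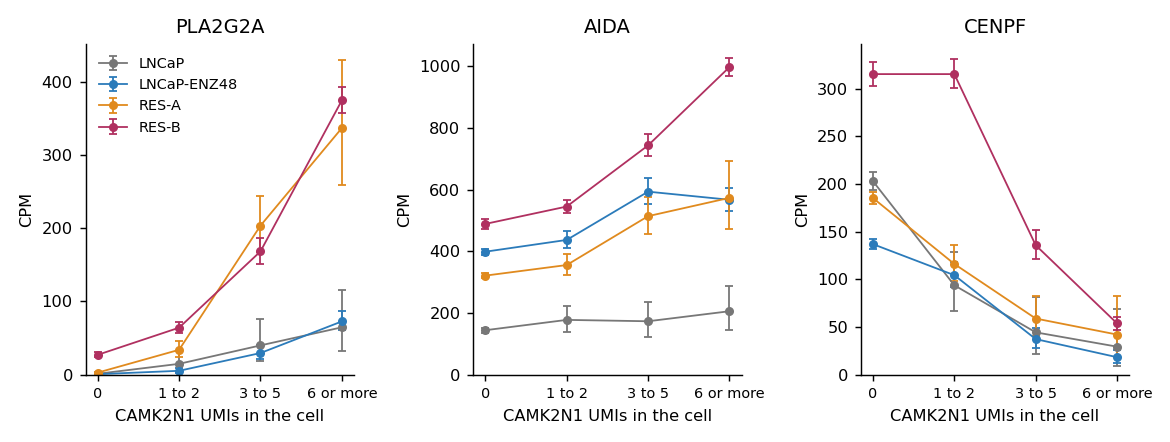
Levels in CPM of PLA2G2A, AIDA and CENPF in cells with 0, 1 to 2, 3 to 5 and 6 or more CAMK2N1 UMIs, at 5000 UMIs per cell, in each library with exact Poisson 95% intervals. PLA2G2A is higher with more CAMK2N1 in all 4 libraries, AIDA most clearly in RES-B, and the mitotic gene CENPF is lower, from 315.5 to 53.8 CPM in RES-B.

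Genes of the differentiated luminal cell were among those that varied with CAMK2N1. In LNCaP and LNCaP-ENZ48, KLK3, which encodes prostate-specific antigen and is induced by androgen, had r of 0.14 and 0.16. In LNCaP its level was 675 CPM (657 to 693) in cells without CAMK2N1 and 1447 (1272 to 1640) in cells with 6 or more UMIs. In LNCaP-ENZ48 it was 84.3 (79.9 to 88.8) and 226 (204 to 250). Over whole libraries KLK3 and CAMK2N1 went opposite ways after 48 h of ENZ, KLK3 from 718 to 94.97 CPM, while within each library the cells with more CAMK2N1 had more KLK3. In RES-B, where KLK3 was at 30.5 CPM, the values were 21.3 (18.3 to 24.7) and 45.8 (39.7 to 52.5). RES-A had 0.0349 CPM of KLK3, too few UMIs for a comparison. KLK2 and KLK3 are near copies, so their separate levels are uncertain.

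Other genes shared among libraries were MME, a cell-surface neutral endopeptidase of luminal cells, with r of 0.08 in RES-A, 0.14 in LNCaP, 0.11 in LNCaP-ENZ48 and 0.20 in RES-B. MALAT1 (r = 0.09 to 0.17) and NEAT1 (r = 0.09 to 0.19), both long noncoding RNAs of the nucleus, completed the 3 genes that were among the 50 highest r in all 4 libraries. AIDA, MIA3, MT-CO2 (a mitochondrially encoded subunit of cytochrome oxidase), SELENBP1 (a selenium-binding protein), STEAP2 (a metalloreductase of prostate epithelium) and SYT4 (a synaptotagmin of secretory vesicles) were in the 50 highest of 3 libraries. SYT4 had r of 0.14 in LNCaP, 0.17 in LNCaP-ENZ48 and 0.19 in RES-B, and in RES-A it was at 1.12 CPM. A further 25 genes were in the 50 highest of 2 libraries and 120 in those of 1. Across genes, which are not independent, the r values of a pair of libraries had a Spearman correlation of 0.21 (LNCaP and RES-A) to 0.39 (RES-A and RES-B), over 4167 to 4467 genes.

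The rest of the highest r differed by library. In LNCaP the 8 highest also held GAPDH (0.16), the engulfment adaptor gene GULP1 (0.15) and EEF1A1 (0.13), and in LNCaP-ENZ48 they held MT1G (0.17), a metallothionein, with MT-CO2 (0.15), EEF1A1 (0.15), GULP1 (0.14) and PKIB (0.14), an inhibitor of protein kinase A. In RES-A the 8 highest included MT-CO2 (0.13), the small heat shock protein gene HSPB1 (0.12), CKB (0.11), the glutathione synthesis gene GCLC (0.11), MT-CO1 (0.11), AIDA (0.10) and NEAT1 (0.10). In RES-B, after PLA2G2A and AIDA, they were the creatine kinase gene CKB (0.24), the ubiquitin ligase gene LTN1 (0.21), ZBTB43 (0.21), MME (0.20), NIPSNAP3A (0.20) and SYT4 (0.19). The mitochondrial share of the cell moved with CAMK2N1 in RES-A, where the level was 22.4 CPM in the lowest of 4 equal groups of cells ranked by that share and 92.5 in the highest (r = 0.14). In the other libraries r with that share was -0.03 to 0.07. The highest group still had most CAMK2N1 in LNCaP-ENZ48, at 304 CPM beside 160 to 214 in the rest. In RES-B it had 769 CPM beside 626 to 657. In LNCaP it had 76.4 CPM beside 41.3 to 83.0. After adjustment for phase scores, total UMIs and mitochondrial share, the r of MT-CO2 in RES-A was 0.02 and that of MT-CO1 -0.01.

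**Figure D5:**
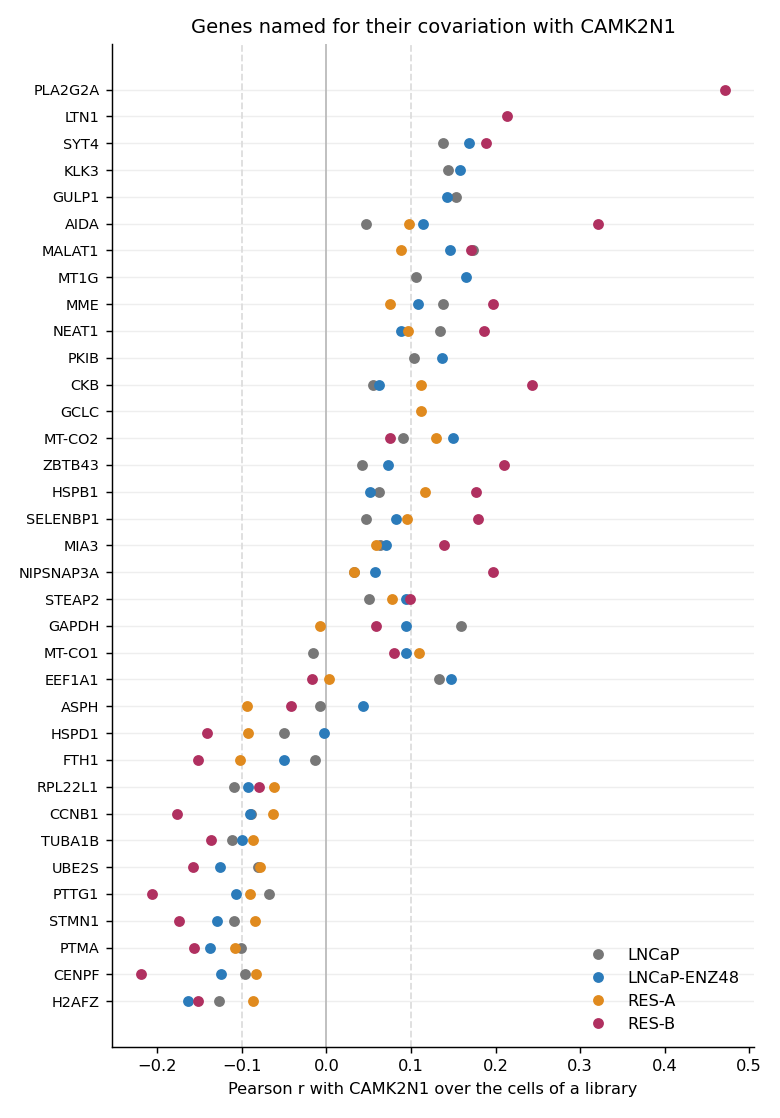
Pearson r with CAMK2N1 over the cells of each library for the genes named by their r, ordered by their mean. Dashed lines mark 0.1 and -0.1, and a gene has no point in a library where it was found in under 10% of cells, as PLA2G2A in all but RES-B (0.47). Genes of dividing cells are below 0 in all 4 libraries.

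The lowest r in LNCaP, LNCaP-ENZ48 and RES-B included genes of dividing cells. H2AFZ, a histone variant gene, was lowest in LNCaP (r = -0.13) and LNCaP-ENZ48 (-0.16), with TUBA1B, RPL22L1 and STMN1 after it in LNCaP and PTMA, STMN1 and UBE2S after it in LNCaP-ENZ48. In RES-B the lowest were CENPF (-0.22), PTTG1 (-0.21), CCNB1 (-0.18) and STMN1 (-0.17), which act in mitosis or on microtubules. In RES-A they were PTMA (-0.11), the ferritin gene FTH1 (-0.10), the hydroxylase gene ASPH (-0.09) and the mitochondrial chaperone gene HSPD1 (-0.09). CENPF was at 203 CPM in LNCaP cells without CAMK2N1 and 29.4 in those with 6 or more UMIs. The pair was 137 and 18.3 CPM in LNCaP-ENZ48. It was 185 and 42.1 in RES-A, and 315.5 and 53.8 in RES-B. Of the G2/M phase genes found in enough cells, 0 of 32 in RES-A, 0 of 31 in LNCaP, 3 of 22 in LNCaP-ENZ48 and 20 of 31 in RES-B had an r of -0.1 or less, beside 0.0419%, 0.146%, 0.264% and 1.12% of all genes. Their median r was -0.05, -0.07, -0.08 and -0.13. Of S phase genes, 0 of 17, 0 of 12, 0 of 9 and 1 of 12 did. Phase calls use the same genes, so these r restate the levels by phase.

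The CaMKII and calmodulin genes, which encode what CAMK2N1 acts on and the proteins around it, were read for the same contrasts. In LNCaP-ENZ48 none of the 8 genes of the list with enough counts was 2-fold higher or lower than in LNCaP, where only 0.192% and 0.645% of all genes were, so this count says nothing particular about the list. Their log2 ratios ran from -0.33 to 0.29 (median 0.00, beside -0.07 for all genes). Of the kinase subunits, CAMK2G was at 17.4 CPM in RES-A, 22.2 in LNCaP, 21.4 in LNCaP-ENZ48 and 19.1 in RES-B. CAMK2B was at 13.4, 9.002, 10.8 and 18.5 CPM in the same order. With a log2 ratio of 1.04 in RES-B it was 1 of 9 genes at least 2-fold higher there, beside 4.82% of all genes. It had enough counts for that contrast only through RES-B, where it was high, so the count of 1 rests on that level. CAMK2D was at 5.90 to 7.37 CPM, CAMK2A at 0 to 0.0190, and the related inhibitor gene CAMK2N2 at 1.33 to 3.08.

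In RES-A, 1 of 10 genes was at least 2-fold higher and 2 were lower, beside 3.74% and 4.15% of all genes. The higher one, CAMK1D, a calmodulin-dependent kinase of another family, went from 0.657 CPM in LNCaP to 21.5 (log2 ratio 5.03) and was at 14.0 in RES-B (4.41) and 1.86 in LNCaP-ENZ48. It had enough counts only through RES-A, where it was high, and was below the minimum for RES-B against LNCaP. CALM3, a calmodulin gene, had a log2 ratio of -1.08 and PPP3CA, a calcineurin catalytic subunit, of -1.16. CALM2, which encodes the same protein as CALM3, was between 226 and 272 CPM over the 4 libraries. CAMK1, CAMKK2 (an upstream kinase that is itself androgen-induced) and PPP3CB had log2 ratios against LNCaP between -0.38 and 0.42. Between RES-B and RES-A none of 10 genes was past 2-fold. Over cells, 5 to 7 members per library were found in enough cells, and 0 reached an r of 0.1 in either direction, limits that at most 0.861% and 1.12% of all genes passed in a library.

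Lists of other processes gave a setting for these values. Of 13 androgen-induced genes with enough counts, 5 were at least 2-fold lower in LNCaP-ENZ48 than in LNCaP, 6 in RES-A and 6 in RES-B, beside 0.645%, 4.15% and 3.08% of all genes, and 0 were higher. Among them KLK3 had log2 ratios of -2.92 in LNCaP-ENZ48 and -4.56 in RES-B. Of 4 genes known to be lowered by androgen, UGT2B15, an androgen-inactivating enzyme gene, was the 1 that was past 2-fold in LNCaP-ENZ48 (log2 ratio 1.63). It was at 10.99 CPM in LNCaP, 26.02 in RES-B, 33.9 in LNCaP-ENZ48 and 124 in RES-A, so in RES-A it was highest where CAMK2N1 was lowest. UGT2B15 and UGT2B17 are near copies, and their separate levels are uncertain. In RES-B, 8 of 15 endoplasmic reticulum chaperone genes were at least 2-fold higher than in LNCaP, beside 4.82% of all genes. In LNCaP-ENZ48 it was 0 of 15, beside 0.192%. None of the 13 to 15 of them found in enough cells reached an r of 0.1 with CAMK2N1 in a library. At most 0.861% of all genes did, so this count says nothing particular about the list. In RES-B their median r was -0.03, beside -0.002 for all genes. Of 14 hypoxia genes, 2 were at least 2-fold higher in RES-B and 0 in LNCaP-ENZ48. Of 13 amino acid stress genes 0 were in either, beside 4.82% and 0.192% of all genes in these contrasts.

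Within libraries the level of CAMK2N1 was followed over 4 equal groups of cells, ranked from low to high by the summed UMIs of a list. Over those ranked by amino acid stress genes the lowest and highest groups had 100.4 and 52.1 CPM in LNCaP, 63.9 and 36.1 in RES-A, 814 and 527 in RES-B, and 216 and 254 in LNCaP-ENZ48. For hypoxia genes the highest group of LNCaP cells had 111 CPM and the lowest 40.4, while the 4 groups ranged from 207 to 245 CPM in LNCaP-ENZ48, from 42.0 to 51.8 in RES-A and from 612 to 760 in RES-B. For genes known to be lowered by androgen the lowest and highest groups had 406 and 929 CPM in RES-B. The pair was 21.7 and 70.8 in RES-A, 209 and 248 in LNCaP-ENZ48, and 73.5 and 55.7 in LNCaP.

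Genes near CAMK2N1 were read for the same contrasts. Of 25 genes within 500 kb, 4 reached 10 CPM in a library. These were PINK1, a mitochondrial quality-control kinase, DDOST, a subunit of the oligosaccharyltransferase, HP1BP3, a heterochromatin-binding protein, and EIF4G3, a translation initiation factor. They lie 147 to 320 kb away. In LNCaP-ENZ48 their log2 ratios against LNCaP were 0.67, 0.09, -0.26 and 0.14, and in RES-A 0.20, -0.19, -0.18 and -0.45. In RES-B they were 1.48, 0.83, 0.54 and 0.41, all with intervals above 0 and all smaller than that of CAMK2N1. The median gene of all was at 0.11 in RES-B. PINK1 reached 10 CPM only in RES-B (14.2 CPM), where it was high, so its place among the 4 rests on that level.

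The genes with the most similar course over the libraries were then taken. Among 2909 genes with at least 50 CPM in a library, likeness was measured as the distance between their log2 ratios against LNCaP in the other 3 libraries and those of CAMK2N1. The nearest were ATP11A (distance 1.65, ratios 0.58, -0.54 and 2.36), LTN1 (1.74), ARRDC3 (1.88), LMO4 (1.90) and MT1F (1.92). In LNCaP-ENZ48, LTN1, ARRDC3 and LMO4 had log2 ratios of 0.24, 0.10 and 0.21 against 1.82 for CAMK2N1, which had been chosen for that value. Apart from LMO4, the 5 reached 50 CPM only in RES-B. Of the 2909 genes, 12 were at least 2-fold higher in both LNCaP-ENZ48 and RES-B, contrasts that share the LNCaP library. CAMK2N1 and NUCB2, which encodes a calcium-binding protein, were the 2 of these that were not above LNCaP in RES-A. NUCB2 was at 147 CPM in LNCaP, 146 in RES-A, 380 in LNCaP-ENZ48 and 328 in RES-B, and its r with CAMK2N1 over cells was between -0.07 and 0.09.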

How the data were processed

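The authors made the deposited counts (UMIs per gene and cell) with Cell Ranger 3.0.2 and a prebuilt GRCh38 reference, from living cells sorted into a droplet 3′ protocol, per the file headers and the study's methods. Cells were filtered with the study's limits per library, which set a higher floor for LNCaP (16000 UMIs) than for the others (5000). Levels were UMIs summed over kept cells as CPM, with exact Poisson 95% intervals. Shares had exact Clopper-Pearson intervals and ratios exact conditional binomial ones. A count of 0 was set to 3 UMIs. Thinning to 5000 UMIs left out no kept cell, and r used values scaled to 10000 UMIs. Phases were called with scanpy 1.11.5 on all thinned cells together. Doublets were not removed. Scrublet called 3 to 6 cells per library, too few to have worked, and an alternative left out the highest scores (34 to 188 cells). Coordinates came from GENCODE 44, matched by gene ID, and symbols are those of the deposited matrices.

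Genes were named by rule: the 8 highest and 4 lowest r per library, genes in the 50 highest r of at least 3 libraries, the 5 most similar genes over libraries, members of the CaMKII list and genes within 500 kb with at least 10 CPM, and examples of other lists. The gene and the lists were chosen with earlier results of these data known, and PLA2G2A in 3 libraries, NUCB2 and the genes followed over CAMK2N1 UMIs were chosen after their values were seen. Alternatives used TMM factors from edgeR 4.0.16, DESeq2-type size factors, other filters, phases and depths. The scripts were tested on simulated data. Some genes that the rule names are not reported here.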

Additional observations from a re-analysis of the deposited data

How the results depend on the processing

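No paired analysis was possible because each group is 1 library and no test was run, and for the same reason no library could be left out. No direction of a ratio changed under any alternative run, though in G1 cells CAMK2N1 was second and not first in LNCaP-ENZ48 against LNCaP. The log2 ratio of LNCaP-ENZ48 to LNCaP was 1.75 with all barcodes, 1.66 in G1 cells, 1.92 with TMM and 1.92 with DESeq2 size factors. That of RES-A to LNCaP was -0.51 with all barcodes. That of RES-B to LNCaP was 3.39 with 1 cell filter for all libraries, 3.37 with all barcodes, 3.35 in G1 cells, 3.34 with TMM and 3.35 with size factors. RES-B to RES-A was 3.81 in G1 cells and 3.81 with size factors. RES-A to LNCaP-ENZ48 was -2.12 in G1 cells, -2.40 with TMM and -2.39 with size factors, and RES-B to LNCaP-ENZ48 was 1.69, 1.42 and 1.42. The other 18 ratios stayed within the interval. Size factors moved the median of all genes by 0.10 in LNCaP-ENZ48 against LNCaP and by -0.20 in RES-B against LNCaP-ENZ48, and TMM by -0.11 in RES-B against LNCaP and by -0.15 in RES-A against LNCaP-ENZ48.

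The level was 65.4 CPM in LNCaP with all barcodes and 667 in RES-B with 1 cell filter. In G1 cells it was 57.2 in RES-A, 78.4 in LNCaP, 248 in LNCaP-ENZ48 and 801 in RES-B. Positive shares depend on depth by construction. In RES-A, LNCaP, LNCaP-ENZ48 and RES-B they were 13.3%, 17.5%, 32.2% and 75.4% without thinning, 5.25%, 6.51%, 17.4% and 43.5% at 2000 UMIs, 9.86%, 10.7%, 25.8% and 61.6% in G1 cells, and 4.53%, 5.56%, 16.5% and 41.5% at 2 or more UMIs. LNCaP was above RES-A in each.

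Of the 50 genes with the highest r, LNCaP kept 29 without thinning, 31 in G1 cells and 27 with the 0.5% filter, which was chosen after seeing the data. RES-A kept 33 with that filter and 31 with r adjusted for phase scores, total UMIs and mitochondrial share. The other 15 counts were 35 or more. The adjusted r of PLA2G2A in RES-B was 0.47 and of KLK3 0.12 in LNCaP and 0.16 in LNCaP-ENZ48, while the median r of G2/M genes went to between -0.01 and 0.00. Shares of genes past 2-fold changed with the minimum level, from 0.192% to 0.485% at 1 CPM and 0.306% at 50 CPM for genes higher in LNCaP-ENZ48. Thinned LNCaP cells held a mean of 0.336 UMIs of the gene, so single cells without a UMI cannot be called negative.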
